A study of Drosophila melanogaster with 5 samples.

Results

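The vacuolar proton pump, or V-ATPase, was examined in 5 RNA libraries, each made from a GFP-labeled cell of the *Drosophila* pars intercerebralis (PI), a neurosecretory region at the dorsal midline of the brain. The genes were all those whose FlyBase symbol starts with *Vha*. The reference names held 33 such genes, of which 29 were matched by identifier to the 17453 genes of the count tables. The other 4, *Vha13*, *Vha26*, *Vha44* and *VhaAC39-1*, were not matched and were not analysed here, so 4 subunits (G, E, C and the general copy of d) were not covered.

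All flies carried *Dilp2mCherry*, a red marker of the insulin-producing PI cells, which served as the landmark for collecting nearby cells with GFP. GFP came from either kurs58-GAL4 with UAS-mCD8::GFP or C767-GAL4 with UAS-nlsGFP. Both drivers also label cells outside the PI, and the driver of each cell is given neither by the labels nor by the methods. Cells 1 to 4 were therefore handled as 1 condition of 4 cells, and cell D, which the study left out because its reads mapped indiscriminately, was given beside them as its own value. There was no comparison group. By the labels every cell came from a different animal, while the series text speaks of fewer animals, so whether any animal gave more than 1 cell was not settled, and the SD between cells measures only the spread between these libraries.

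The V-ATPase is a rotary machine that uses ATP to pump protons into lysosomes, endosomes, synaptic vesicles and dense-core vesicles. Its cytosolic V1 sector splits ATP, and its membrane VO sector carries the protons. In peptide-secreting neurons the acid interior of the vesicle is needed for processing of the peptide precursor. In neurons that release small transmitters from vesicles, the proton gradient drives their loading. *Drosophila* has several gene copies for many subunits. In most cases a single copy, called the general copy here, is used in most tissues, and the other copies are known to be more restricted.

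The libraries held 3451331 to 4913151 reads assigned to genes. Expression is given as log2(RPM + 1), where RPM normalizes a gene's reads to the reads assigned to genes (1 read was 0.204 to 0.290 RPM), and 1 RPM is the threshold for expression. Brackets hold exact Poisson 95% intervals. These cover the error of counting alone, because amplified copies are not independent molecules. A gene without reads is given without a bracket, and its upper limit was set at 3 reads per library, or 0.736 RPM in cell 3 and at most 0.869 RPM elsewhere. The libraries differed in the RNA of other cell types. The 8 fat body markers, among them the yolk protein genes, summed to 0.989% of assigned reads in cell 3 and 0.106% in cell D, compared with 1.80% to 4.63% in cells 1, 2 and 4. The 11 photoreceptor markers summed to 0.196% and 0.134%, compared with 1.44% to 4.79%. The 7 neuronal markers were lowest in cell 1 (0.0429%) and highest in cell D (0.626%), with *elav* below 1 RPM in cell 1. Cell 3 is called the peptide-rich cell for *Dh44*, at 13.2% of its assigned reads and at most 0.0381% in any other library. Among the other PI peptide genes, *Ilp3*, *Ilp5* and *Ms* were also highest in cell 3, at 62.3, 35.1 and 2302 RPM. In cell D they were at 11.2, 22.8 and 1218 RPM. *SIFa* had reads assigned to it in cells 3 and D alone, at 19.6 and 99.5 RPM. *Dsk* went the other way, with 0 reads in cell 3 and 104 RPM in cell 4. The 10 markers of other peptides summed to 0.0203% in cell 3 and 0.186% in cell D. The study aimed to avoid insulin-producing cells, whose gene *Ilp2* was at 2006 RPM in cell 3 and 156 RPM in cell D. It was at 1.02, 13.3 and 0.225 RPM in cells 1, 2 and 4. Whether this was RNA of neighboring cells was not tested. The 6 markers of peptidergic cells given below summed to 3.53% in cell D and 1.22% in cell 3. No test between conditions was possible, and all differences below compare libraries.

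Of the 29 matched *Vha* genes, 14, 15, 12 and 14 were expressed in cells 1 to 4 and 13 in cell D, at the threshold of 1 RPM. Among all genes of the tables, 23.7%, 34.5%, 17.7%, 35.1% and 40.7% passed in the same libraries. In total, 11 *Vha* genes passed in all 4 cells, 3 in 3 cells, 1 in 2 cells and 14 in none. Of all genes, 11.3% passed in all 4 cells and 55.7% in none. All 10 matched general copies were at or above 1 RPM in cells 1 and 2, 9 in cell 4, 8 in cell 3 and 9 in cell D.

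The 14 genes that passed in none of cells 1 to 4 were all other copies. They were *Vha68-3* (subunit A), *Vha36-2* and *Vha36-3* (subunit D), *Vha14-2* (subunit F), *Vha100-3*, *Vha100-4* and *Vha100-5* (subunit a), *Vha16-2*, *Vha16-3*, *Vha16-4* and *Vha16-5* (subunit c), *VhaPPA1-2* (subunit c''), *VhaAC39-2* (subunit d) and *VhaM9.7-d* (subunit e). Of these, 12 had 0 reads in all 5 libraries. *Vha100-5* had 1 read in cell 3 and *Vha16-5* had 1 read in cell D. The other copies that were expressed were *Vha68-1*, *Vha100-1*, *VhaM9.7-a*, *VhaM9.7-c* and *VhaAC45RP*. In MMQuant's tables, which assign reads on overlapping genes to the group of genes, no *Vha* gene shared a read with a neighbor in cells 1 to 4, and in cell D 2 reads were shared.

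**Figure D1:**
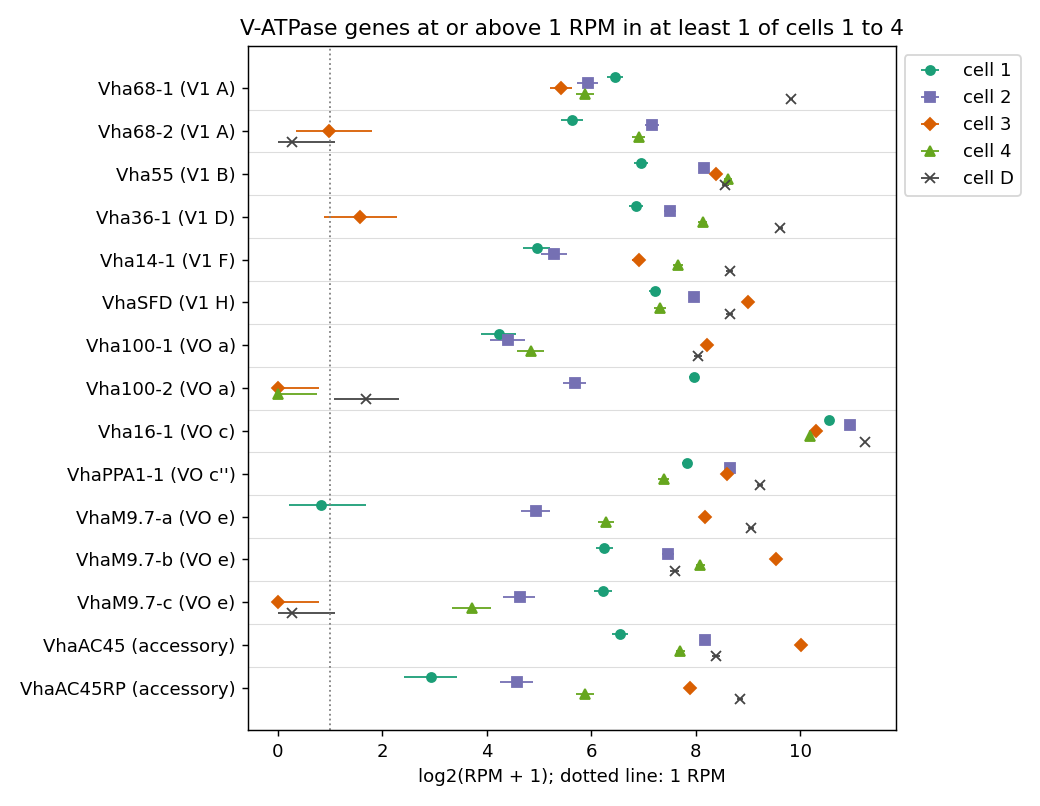
Expression of the 15 *Vha* genes that reached 1 RPM in at least 1 of cells 1 to 4, as log2(RPM + 1) in each of the 5 libraries, with exact Poisson 95% intervals (for 0 reads, a bar up to the limit of 3 reads) and a dotted line at 1 RPM. *Vha16-1* lies between 10.19 and 11.24 in every library, whereas *Vha68-2*, *Vha100-2* and *VhaM9.7-c* fall to the threshold or below it in cell 3 and *Vha36-1* close to it.

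The catalytic A subunit, which binds and splits ATP, is encoded by the general copy *Vha68-2* and by *Vha68-1*, beside the undetected *Vha68-3*. *Vha68-1* and *Vha68-2* lie near each other on chromosome 2L (in dm6 coordinates, as for all positions here, 13000770 to 13004107, minus strand, and 12974322 to 12978607, plus strand). *Vha68-2* had 191, 491, 4 and 529 reads in cells 1 to 4 and was at 5.64 (5.43–5.84), 7.16 (7.03–7.29), 0.99 (0.34–1.81) and 6.91 (6.78–7.03). In cell D it had 1 read. *Vha68-1* was at 6.47, 5.93, 5.42 and 5.88 in cells 1 to 4 (mean 5.92 ± 0.43, SD, n = 4) and at 9.83 (9.78–9.87) in cell D, on 4457 reads. *Vha68-2* therefore varied from library to library far more than *Vha68-1* did among cells 1 to 4. In cells 3 and D, which nearly lacked *Vha68-2*, the A subunit reads had to lie on *Vha68-1*, the only other copy with reads. *Vha68-1* was itself lowest in cell 3 among cells 1 to 4. Reads of subunit A numbered 533, 698, 175 and 786 in cells 1 to 4. The share of A subunit reads on *Vha68-1* was 97.7% in cell 3 (Wilson 95% interval for counting error 94.3% to 99.1%) and in cell D 4457 of 4458 reads were its own. The other libraries had 64.2% (60.0%–68.1%, cell 1), 29.7% (26.4%–33.1%, cell 2) and 32.7% (29.5%–36.1%, cell 4).

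*Vha55*, on chromosome 3R from 12623762 to 12627829, encodes the B subunit, the partner of A in the ATP-splitting head, and is the only gene for it among the 33. Its levels were 6.96, 8.17, 8.40 and 8.62 in cells 1 to 4 (mean 8.04 ± 0.74, SD, n = 4) and 8.57 in cell D. *VhaSFD*, on chromosome 2L from 16722883 to 16727826, encodes the regulatory H subunit and was at 7.22, 7.97, 9.00 and 7.32 (7.88 ± 0.82), with 8.65 in cell D. Both genes were well above the threshold in every library, and *VhaSFD* was highest in cell 3. *Vha14-1*, on chromosome 2R from 15679426 to 15680084, encodes the F subunit of the central rotor. It was at 4.96 and 5.29 in cells 1 and 2, at 6.91 and 7.66 in cells 3 and 4, and at 8.65 in cell D.

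*Vha36-1* encodes the D subunit, which with F forms the rotor shaft, and lies on chromosome 2R from 15541435 to 15542498. It had 451, 625, 8 and 1244 reads in cells 1 to 4 and was at 6.86 (6.73–6.99), 7.51 (7.39–7.62), 1.57 (0.89–2.28) and 8.13 (8.05–8.21). Cell D had 3860 reads (9.62, 9.57–9.67). Cell 3 stood apart from the other libraries, 58.7-fold below cell 1 and 143-fold below cell 4 in RPM. The other D subunit genes, *Vha36-2* and *Vha36-3*, had 0 reads in cell 3 as elsewhere, so no other matched copy of this subunit was seen in that cell.

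In the membrane sector, subunit a is the large stationary protein that guides protons to and from the rotating ring, and its copy helps to set the membrane to which the pump goes. *Vha100-1* (chromosome 3R, 29131193 to 29137980, plus strand) is the copy known for its work in fly neurons, where it is found on synaptic vesicles. *Vha100-2* (chromosome 3R, 18390323 to 18399169, minus strand) is the general copy. *Vha100-1* had 70, 70, 1202 and 123 reads in cells 1 to 4 and was at 4.24 (3.90–4.56), 4.41 (4.07–4.73), 8.21 (8.13–8.29) and 4.84 (4.59–5.09). In cell D, 1288 reads gave 8.04 (7.96–8.12). Cells 1, 2 and 4 lay close together (SD 0.31), and cell 3 was 10.6-fold above cell 4, the nearest of them, in RPM.

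*Vha100-2* was high where *Vha100-1* was low, except in cell 4, where it was not detected. It had 975 reads in cell 1 (7.97, 7.87–8.06) and 174 in cell 2 (5.68, 5.47–5.89), but 0 in cells 3 and 4 and 11 in cell D (1.70, 1.08–2.32). Against the limit of 3 reads in cell 3, cell 1 was at least 338-fold higher and cell 2 at least 68.5-fold higher. *Vha100-1* thus took 6.70% (5.34%–8.38%) of subunit a reads in cell 1 and 28.7% (23.4%–34.7%) in cell 2. In cell 3 it took 99.9% (1202 of 1203 reads), in cell 4 all 123 reads and in cell D 99.2% (98.5%–99.5%). Cells 3 and 4 shared this make-up, although the level of *Vha100-1* differed between them. With the reads divided by exon length, 3289 bases for *Vha100-1* and 3222 for *Vha100-2*, the share of *Vha100-1* was 6.57% in cell 1 and 28.3% in cell 2.

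*Vha16-1*, on chromosome 2R from 6625242 to 6633090, encodes the c subunit, which forms the rotating ring together with c''. In RPM it was the steadiest of the expressed genes, at 10.54, 10.95, 10.30 and 10.19 in cells 1 to 4 (mean 10.50 ± 0.34, SD, n = 4) and 11.24 in cell D. With the median-of-ratios scaling described below, its SD was 0.59 and that of *Vha68-1* was lower, at 0.53. *VhaPPA1-1*, on chromosome 3R from 14902330 to 14904061, encodes c'' and was at 7.84, 8.65, 8.60 and 7.39 (8.12 ± 0.61), with 9.24 in cell D. The ring genes thus varied less than *Vha36-1*, *Vha68-2*, *Vha100-1*, *Vha100-2*, *VhaM9.7-a*, *VhaM9.7-c* and *VhaAC45RP*, whose SDs ran from 1.87 to 4.05. A small SD was not particular to the ring. That of *Vha68-1* was 0.43, below that of *VhaPPA1-1*, and those of *Vha55* and *VhaSFD* were 0.74 and 0.82. *Vha16-1* supplied 53.5%, 50.1%, 23.9% and 36.5% of all *Vha* reads in cells 1 to 4, and 31.5% in cell D. Per kb of exon its shares were 39.2%, 35.2%, 13.8%, 20.8% and 17.0%.

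Subunit e is a small membrane protein of the VO sector, and 3 of its 4 genes were expressed. *VhaM9.7-b*, the general copy, lies on chromosome 3L from 21539862 to 21541215 and was at 6.25, 7.48, 9.54 and 8.09 in cells 1 to 4 (mean 7.84 ± 1.37, SD, n = 4), with 7.60 in cell D. *VhaM9.7-a* (chromosome 3L, 4262705 to 4263464, plus strand) had 3, 103, 1180 and 341 reads and was at 0.82 (0.21–1.70), 4.95 (4.66–5.22), 8.18 (8.10–8.26) and 6.28 (6.13–6.43). In cell D, 2604 reads gave 9.05 (9.00–9.11). It was below the threshold in cell 1 and highest in cells 3 and D.

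*VhaM9.7-c* (chromosome 3L, 4186018 to 4186865, minus strand) ran the other way. Its reads numbered 290, 82, 0 and 54 in cells 1 to 4, with levels of 6.23 (6.06–6.39), 4.63 (4.31–4.93), 0.00 and 3.72 (3.34–4.08), and cell D had 1 read. In cell 1, *VhaM9.7-b* and *VhaM9.7-c* shared the e subunit reads almost equally, at 50.2% (46.1%–54.2%) and 49.3% (45.3%–53.4%). In cell 3, *VhaM9.7-b* took 72.0% and *VhaM9.7-a* 28.0%, whereas in cell D *VhaM9.7-a* took 73.3%. Per kb of exon, *VhaM9.7-b* took 41.2%, 67.5%, 60.0% and 64.6% in cells 1 to 4 and 17.5% in cell D.

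**Figure D2:**
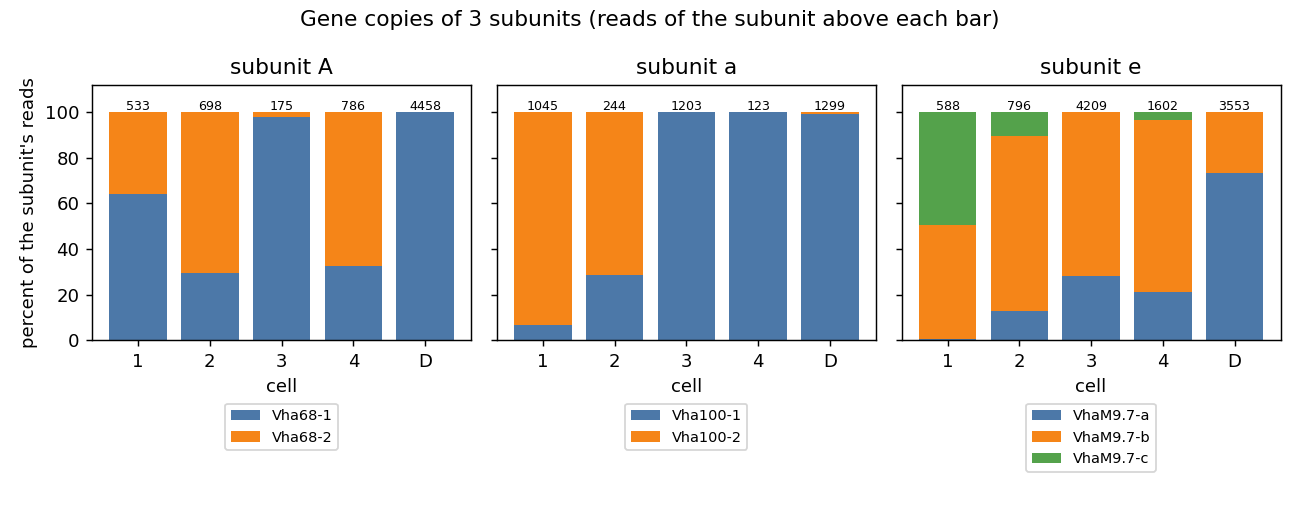
Share of reads, in percent, that each gene copy took of subunits A, a and e in each library, with the number of reads of the subunit above the bar. *Vha68-1* held 97.7% of subunit A reads in cell 3, *Vha100-1* held all 123 subunit a reads in cell 4, and *VhaM9.7-c* had 0 reads in cell 3 against 49.3% of subunit e reads in cell 1.

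*VhaAC45* encodes the accessory glycoprotein Ac45, which in vertebrate neuroendocrine cells is known to help steer the pump through the secretory pathway. It lies on chromosome 2R from 9207561 to 9209774 and had 363, 1000, 4233 and 925 reads in cells 1 to 4 and was at 6.55 (6.40–6.70), 8.18 (8.09–8.27), 10.02 (9.98–10.06) and 7.71 (7.61–7.80). Cell D was at 8.39. *VhaAC45RP*, a relative of *VhaAC45* on chromosome 3R from 30164692 to 30166419, had 26, 79, 964 and 258 reads and was at 2.93 (2.42–3.42), 4.58 (4.26–4.88), 7.89 (7.80–7.98) and 5.88 (5.71–6.06), with 8.85 (8.80–8.91) in cell D. Both accessory genes were highest in cell 3 among cells 1 to 4 and lowest in cell 1. *ATP6AP2*, a further accessory gene of the pump whose older symbol was *VhaM8.9*, falls outside the symbol rule. It was at 6.80, 5.63, 6.66 and 8.02 in cells 1 to 4, with 2335 reads in cell D, where it was highest.

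*VhaM9.7-a* and *VhaAC45RP* had the same order over the 5 libraries, rising through cells 1, 2, 4, 3 and D. *Vha100-1* had that order too, except that cell 3 was above cell D. *VhaM9.7-c* fell from cell 1 to 2 to 4, with 0 and 1 read in cells 3 and D, and *Vha100-2* was highest in cells 1 and 2. These orders were chosen after the values were seen and describe 5 libraries. The 6 matched markers of peptidergic cells, which include the prohormone convertase gene *amon*, summed to 0.0839%, 0.193%, 1.22% and 0.104% of assigned reads in cells 1 to 4 and 3.53% in cell D. Most of these reads were of *IA-2*, with 701, 1366, 9748 and 693 RPM in cells 1 to 4 and 33053 RPM in cell D, whereas *amon* was at 0.766, 109, 1347, 27.2 and 906 RPM and *dimm* had 0 reads in every library. The fat body and photoreceptor sums given above were lowest in cells 3 and D. In cell D, 3743 of the 6601 photoreceptor marker reads were of *norpA*. The 7 hemocyte and muscle markers summed to 0.0597%, 0.0675%, 0.0276% and 0.0851% in cells 1 to 4 and 0.00320% in cell D. The 7 glial markers summed to 0.169%, 0.313%, 0.0754% and 0.497% in cells 1 to 4. Their sum in cell D was 0.173%, above cell 1, so glial markers were lowest in cell 3 alone. The part of other cells' RNA in the order of the copies was not tested.

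For each gene, cell 3 was set against the mean of cells 1, 2 and 4. Of the 15 *Vha* genes expressed in any of cells 1 to 4, 6 were higher in cell 3 by 1 or more on the log2 scale and 4 were lower by 1 or more. Among the 7734 genes of any kind that met this condition, 17.9% were higher and 60.0% were lower by as much. The median difference was 0.64 for the 15 genes and -1.47 for all genes. Among genes at or above 1 RPM in all 4 cells, it was 0.94 for 11 *Vha* genes and -0.36 for all 1972 genes. Since these 15 genes include those that passed only through the cells where they were high, the counts describe the genes and test nothing. Cell 3 was above each of cells 1, 2 and 4 for 6 of the 15 genes, compared with 16.6% of all genes, and below each of them for 4, compared with 34.9%.

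The 6 higher genes were *VhaM9.7-a*, by 4.17 (SD of cells 1, 2 and 4, 2.85), *Vha100-1*, by 3.71 (0.31), *VhaAC45RP*, by 3.43 (1.48), *VhaAC45*, by 2.54 (0.84), *VhaM9.7-b*, by 2.27 (0.94), and *VhaSFD*, by 1.50 (0.41). The difference of *VhaM9.7-a* rested in part on cell 1, with 3 reads, and was 2.57 without that cell. The 4 lower genes had differences of -5.93 for *Vha36-1* (0.64), -5.58 for *Vha68-2* (0.82), -4.86 for *VhaM9.7-c* (1.27) and -4.55 for *Vha100-2* (4.10). For *Vha100-2* the SD was nearly as large as the difference, because cell 4 also had 0 reads, and the difference was -2.84 without cell 1. *Vha14-1*, *VhaPPA1-1* and *Vha55* differed by 0.94, 0.64 and 0.48 (*Vha14-1* by 1.78 without cell 4), and *Vha16-1* and *Vha68-1* by -0.26 and -0.67.

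**Figure D3:**
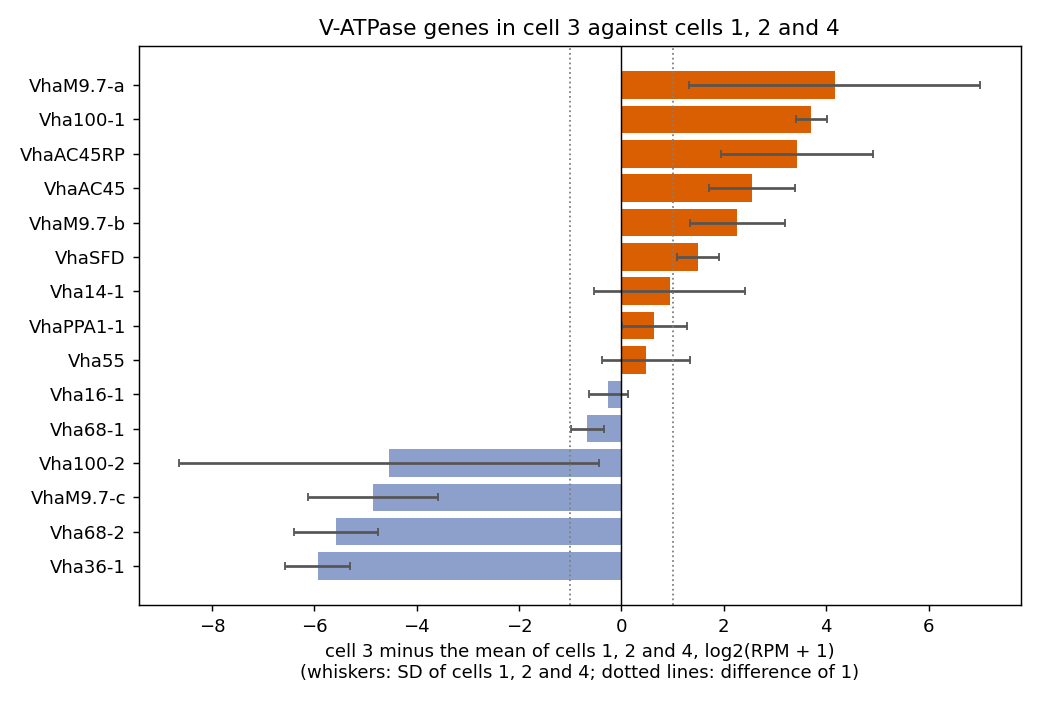
Difference between cell 3 and the mean of cells 1, 2 and 4 for the 15 expressed *Vha* genes, in log2(RPM + 1), with the SD of cells 1, 2 and 4 as whiskers and dotted lines at a difference of 1 in either direction. Bars run from -5.93 for *Vha36-1* to 4.17 for *VhaM9.7-a*, and *Vha100-1* has a difference of 3.71 with a small SD of 0.31.

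These differences depended in part on the scaling. When the libraries were scaled by the median of gene-wise ratios over the genes with reads in all 5 libraries, the median over all genes was -1.22 instead of -1.47. The differences of steadily expressed genes rose by about as much as that of *Vha16-1*, which went from -0.26 to 0.83. *Vha68-1* went from -0.67 to 0.40, so these 2 genes changed sign. *Vha14-1*, *VhaPPA1-1* and *Vha55* reached 2.02, 1.73 and 1.57, which made 9 genes higher, compared with 23.9% of all genes under this scaling. The lower genes were still 4 in number, compared with 54.7%, with *Vha36-1* at -5.11. The shares of the gene copies within a subunit do not depend on the scaling.

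In cell D, 7 of the 15 genes were higher than the mean of cells 1 to 4 by 1 or more and 3 were lower. Of the 8827 genes expressed in any of the 5 libraries, 53.5% were higher and 20.2% were lower, so the shares of *Vha* genes were near those of all genes. It was above each of cells 1 to 4 for 7 of the 15 genes, compared with 37.9% of all genes, and below each for *Vha68-2* alone, compared with 6.57%, with a Poisson interval that overlapped the one in cell 3. The median difference was 0.78 for the 15 genes and 1.20 for all genes. With the median-of-ratios scaling these medians were 0.30 and 0.92, and 6 genes were higher, compared with 48.3% of all genes, as *VhaPPA1-1* went from 1.12 to 0.63. The largest differences upward among the 15 genes were 3.99 for *VhaM9.7-a*, 3.90 for *Vha68-1*, 3.60 for *Vha36-1* and 3.53 for *VhaAC45RP*. *Vha68-2*, *VhaM9.7-c* and *Vha100-2* differed by -4.91, -3.38 and -1.72. Some of these rested on 1 of the cells compared. *VhaM9.7-a* differed by 2.58 without cell 1, *Vha36-1* by 2.12 without cell 3, and *Vha100-2* by -0.20 without cell 1, -0.96 without cell 2 and -2.85 without cell 3 or cell 4. Cells 3 and D were thus alike in lacking most reads of *Vha68-2*, *VhaM9.7-c* and *Vha100-2*, although cell 4 also had 0 reads of *Vha100-2*. They were unlike in *Vha36-1*, which had 8 reads in cell 3 and 3860 in cell D.

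The summed reads of the 29 genes were 0.279%, 0.395%, 0.526% and 0.320% of assigned reads in cells 1 to 4 (0.380% ± 0.109, SD, n = 4) and 0.768% in cell D. With the reads of the fat body and photoreceptor markers and of *Dh44* left out of the totals, the shares were 0.297%, 0.419%, 0.614%, 0.342% and 0.770%, in the same order. The general copies supplied 93.3%, 96.0%, 83.6% and 92.7% of the *Vha* reads in cells 1 to 4 and 71.9% in cell D. The other copies summed to 187, 157, 863 and 233 RPM in cells 1 to 4 and 2162 RPM in cell D.

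The mitochondrial ATP synthase, a related rotary enzyme that makes ATP from a proton gradient, was set beside the pump. Its 16 genes summed to 15827, 15151, 6807 and 17950 RPM in cells 1 to 4 and 10300.1 RPM in cell D, while the *Vha* genes summed to 2789, 3952, 5261, 3197 and 7681 RPM. The ratio of *Vha* to ATP synthase RPM was 0.176, 0.261, 0.773 and 0.178 in cells 1 to 4 and 0.746 in cell D. Cells 3 and D were thus close in this ratio and above cells 1, 2 and 4. In cell 3, 9 of 12 expressed ATP synthase genes were below the mean of cells 1, 2 and 4 by 1 or more. None was higher by as much. Among all genes, 60.0% were lower and 17.9% were higher. The median difference of the 12 genes, -1.50, was close to that of all genes (-1.47). However, 11 of the 12 passed the threshold in each of cells 1 to 4. The 1972 genes of any kind that did so had a median of -0.36, so the ATP synthase median lay below theirs. The ratio is free of the scaling between libraries, and no test between conditions was possible.

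**Figure D4:**
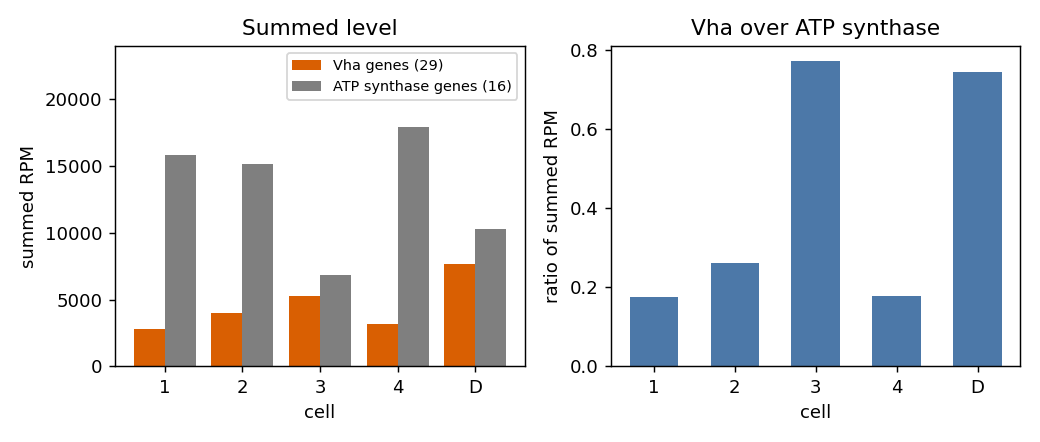
Summed RPM of the 29 *Vha* genes and of the 16 ATP synthase genes in each library (left) and the ratio of the sums (right). The ratio is 0.773 in cell 3 and 0.746 in cell D, and 0.176, 0.261 and 0.178 in cells 1, 2 and 4.

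Of 7 genes listed for assembly and regulation of the pump, 4 were expressed in all 4 cells, 2 in 3 cells and 1 in 2 cells. Among all genes of the tables, 11.3% were expressed in all 4 cells and 55.7% in none. *RNASEK*, known in human cells as a partner of the pump, had 330, 222, 4517 and 427 reads in cells 1 to 4 and was at 6.41, 6.03, 10.11 and 6.60, and was at 10.41 in cell D. The cells thus fell into the same pattern as with *Vha100-1*, with cells 3 and D high. *Rbcn-3A* and *Rbcn-3B* encode the rabconnectin proteins, which help to join V1 to VO. *Rbcn-3B* was at 0.33, on 1 read, in cell 1 and at 6.47, 8.51 and 6.61 in cells 2 to 4, whereas *Rbcn-3A* was at 4.94, 5.94, 2.56 and 5.11, lowest in cell 3. *SkpA*, whose yeast counterpart belongs to the pump's assembly complex, was at 7.58, 7.43, 10.19 and 9.37. *mtd*, a gene with a TLDc domain, was at 8.58, 8.49, 7.81 and 7.33. *Mitf*, a transcription factor known to regulate *Vha* genes in flies, had 0, 141, 20 and 174 reads (0.00, 5.39, 2.56 and 5.33). *CG5969* had 74, 2, 0 and 5 reads.

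Among the genes that use the proton gradient, the glutamate transporter gene *VGlut* was at 4.30, 5.22, 0.58 and 4.84 in cells 1 to 4 and 10.44 in cell D, and the monoamine transporter gene *Vmat* at 6.80, 5.92, 3.18 and 3.90, with 3.66 in cell D. Both were lowest in cell 3 among cells 1 to 4. *VGAT*, the GABA transporter gene, and *prt* had at most 2 reads in any of cells 1 to 4, and were at 5.45 and 5.31 in cell D. The chloride transporter gene *ClC-b* reached 5.57 in cell 1, 4.65 in cell 2 and 5.71 in cell D, and like *Vha100-2* it had 0 reads in cells 3 and 4. *ClC-c* was at 3.48, 5.22 and 5.52 in cells 2 to 4 with 0 reads in cell 1. A further 7, 44, 153 and 13 reads of cells 1 to 4 fell on it and a neighbor together.

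Of the 11 matched lysosome genes, 5 were expressed in all 4 cells and 2 in none, compared with 11.3% and 55.7% of all genes. The protease gene *cathD* had 2023, 1753, 19006 and 1803 reads in cells 1 to 4 and was at 9.02, 8.99, 12.19 and 8.67, with 8.86 in cell D. Cell 3 was thus far above all other libraries, cell D included. *CtsB* and *spin*, a lysosomal protease and transporter gene, were also highest in cell 3, at 9.05 and 9.27, compared with 6.67 to 8.23 for both genes in the other libraries. The membrane protein gene *Lamp1* was lowest there, at 10.83, 10.17, 7.89 and 9.59 in cells 1 to 4. *Trpml* had no read in any library by STAR, but MMQuant placed 1472 reads of cell 3 on it jointly with a neighbor, so its level there cannot be told from that neighbor's. In cell 3, 4 of the 9 expressed lysosome genes were higher by 1 or more than in the other cells and 5 were lower, against 17.9% and 60.0% of all genes.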

How the data were processed

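The authors amplified poly(A) RNA of each cell in 3 rounds, used Trim Galore and PRINSEQ for trimming and STAR for mapping to dm6, with the Ensembl 87 annotation. Versions of these tools were not given in the sources used here. They deposited whole-number read counts without normalization, from STAR (unstranded, used here, and per strand) and from MMQuant. The amplification places reads at 3' ends, so counts may not scale with gene length, and values per kb are given beside the shares of copies. The 4 totals of unassigned reads stayed out of the library sizes (50.9% to 62.6% of trimmed reads in cells 1 to 4 and 45.8% in cell D were not assigned to a gene).

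RPM and log2(RPM + 1) with a threshold of 1 RPM follow the methods of the study. Identifiers were paired with symbols through a table of current FlyBase names (17179 of 17453 matched), and positions and exon lengths are those of Ensembl release 115, which has dm6 coordinates. *VAChT*, *Cp1*, *para*, *Itp*, *Phm* and *Pal1* of the lists were not matched. Intervals are exact Poisson or Wilson 95% intervals. No p-value was computed. The alternatives were other denominators (all uniquely mapped reads, and median-of-ratios scaling over 2970 genes), stranded and MMQuant counts, thresholds of 10 RPM and 1 read, a pseudocount of 0.1 RPM, reads per kb, all 5 cells, and leaving out each cell. The calls were tried on simulated data with counting noise alone. Those data held no amplification noise, so they cannot show how reliable the calls are in these libraries. Python 3.11.15, numpy 2.4.6, pandas 2.3.3, scipy 1.17.1, statsmodels 0.14.6 and matplotlib 3.10.9 were used.

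Named with values are all general copies, every other copy with at least 1 RPM in any library, and the list genes given. The genes, lists and alternatives were chosen with earlier results of these data known.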

Additional observations from a re-analysis of the deposited data

Results flagged for a closer look

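Among cells 1 to 4, a value was marked where the gap between 1 cell and its nearest neighbor took up more of the whole range than Dixon's 95% limit allows. Of 39 values examined, 4 were marked, in all cases with cell 3 as the highest. Of all 7734 genes, 26.4% were marked by the same rule, so a mark was common in these libraries, and of the 15 expressed *Vha* genes 1 was marked. The marked values were *Vha100-1* at 8.21 (ratio of gap to range 0.848), *RNASEK* at 10.11 (0.860), *cathD* at 12.19 (0.901) and the ratio of *Vha* to ATP synthase reads at 0.773 (0.858). For *Vha100-1*, *RNASEK* and the ratio, cell D, which was not part of the 4 values, was also high, at 8.04, 10.41 and 0.746. For *cathD* it was at 8.86, within the range of cells 1, 2 and 4 (8.67 to 9.02).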

How the results depend on the processing

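No difference of 1 or more changed sign, and the counts of expressed *Vha* genes and of genes past a difference of 1 stayed within 1.5 times the reported count under every alternative run. With every uniquely mapped read in the denominator, the median expression of the general copies, averaged over cells 1 to 4, was 7.03 instead of 7.71, and the summed *Vha* share was 0.239% instead of 0.380%, since more reads enter the total. With the median-of-ratios scaling, the summed *Vha* reads were divided by a scaled library size, so the result is no share of a cell's reads. It averaged 0.498% of that size, with cell 3 at 1.06% and cells 1, 2 and 4 at 0.327%, 0.351% and 0.258%. The share of assigned reads in cell 3 was 0.526%. The summed *Vha* share was added after the data were seen. Leaving out each cell gave 11 to 13 genes expressed in all remaining cells. The mean share of *Vha100-2* among subunit a reads was 41.2%, and it fell to 23.8% without cell 1, on which it rests, and rose to 54.9% without cell 3 or cell 4. Without cell 1, without cell 2 or with a pseudocount of 0.1 RPM, 2 instead of 3 genes were lower in cell D. No paired analysis was possible because there was a single condition. With 1 library in each position, differences of cells 3 and D have no replicate check, and genes with 0 reads are not detectable below 0.869 RPM at the shallowest depth.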
